A study of Bos taurus with 8 samples.

Results

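The *HOX* genes were examined in chondrocytes of bovine knee cartilage, taken either from its superficial zone (SZCs) or from its deep zone (DZCs). They were taken as every row of the deposited count table named *HOXA*, *HOXB*, *HOXC* or *HOXD* with a number from 1 to 13 and nothing more. This gave 34 genes of the 24596 in the table, with 10 in the *HOXA* cluster, 7 in *HOXB*, 9 in *HOXC* and 8 in *HOXD*. The RefSeq gene table of assembly ARS-UCD2.0 lists 39 genes under such names, and *HOXA9*, *HOXB6*, *HOXB8*, *HOXB9* and *HOXD8* were not analysed here. The chondrocytes were wild type, came from calves 1 to 2 weeks old, and were grown in DMEM/F12 with serum for 3 days before RNA was taken, with 2 libraries from SZCs and 2 from DZCs. All superficial slices of a knee joint were pooled, as were all deep slices, and the middle zone between them was discarded. The libraries are described as biological duplicates, and every level given here is that of cells in culture.

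*HOX* genes encode homeodomain transcription factors that give cells their position along the body axis and along the limb. They lie in 4 clusters and fall into 13 paralog groups, counted from the end that is active first and most anteriorly in the embryo. In the limb, the genes of the posterior groups act in sequence from the upper segment to the foot, and differentiated connective tissue cells keep much of the positional pattern they acquired in the embryo. The proteins bind DNA together with cofactors of the TALE family, the PBX, MEIS and PKNOX proteins. Whole clusters are held silent by Polycomb complexes and kept active by trithorax proteins.

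The library totals lay between 19918970 and 21890549 counts. Levels are given as CPM, the count relative to a library total that was scaled by trimmed means of *M* values (TMM). A gene with 0 counts could have a level of up to 3 counts, which is 0.129 to 0.187 CPM depending on the library. The zones carried their defining marker, since *PRG4*, which encodes lubricin, was at 2595 CPM in SZCs and 38.4 CPM in DZCs. The chondrocyte genes *COL2A1*, *ACAN* and *SOX9* were present in every library. All 7 chondrocyte markers had negative log2 fold changes of SZCs over DZCs, from -2.04 for *MATN3*, which passed the test given below (FDR 0.00212 by edgeR), to -0.05 for *SOX9*, with a median of -1.10 and *COL2A1* at -1.91. Their part in the *HOX* differences was not tested. The markers of hypertrophic cartilage or bone had a summed level of 2.59 and 1.68 CPM in the SZC libraries, 12.3 CPM in DZC replicate 1 and 71.4 CPM in DZC replicate 2. Of these 8 markers, *ALPL*, *SP7*, *IBSP*, *COL10A1* and *MMP13* ranged from 140 to 468 counts in DZC replicate 2, and none had more than 23 elsewhere. *IHH* went the other way between the DZC libraries, with 194 counts in replicate 1 and 48 in replicate 2, and made up 12.1 of the 12.3 CPM of DZC replicate 1. With 13 and 5 counts in SZCs, *IHH* was called higher in DZCs (log2 fold change -4.12, FDR 0.016 by edgeR's exact test). *BGLAP* and *DMP1* had at most 6 counts in any library. Of 3 blood markers *HBB* had 0 counts in all 4 libraries, *PTPRC* at most 14, and *CD68* between 33 and 156. Of 3 muscle markers *MYOD1* had 0 counts, *ACTA1* at most 9, and *DES* between 34 and 131. The exact test of edgeR with Benjamini–Hochberg adjustment (FDR) was run over the 12857 genes that passed a filter on low counts, and 377 of them (2.93%) passed an FDR of 0.05. Of all tested genes, 2.23% passed with a higher level in SZCs and 0.7% with a higher level in DZCs.

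The clusters differed in whether they were detected at all. The *HOXA* cluster had between 1388 and 3157 counts per library and all 10 of its listed genes were tested. The *HOXC* cluster had between 167 and 440 counts, and 5 of its 9 genes were tested. The *HOXD* cluster had between 444 and 2008 counts, and 6 of its 8 genes were tested. The *HOXB* cluster had 0 and 4 counts in the SZC libraries and 0 and 11 counts in the DZC libraries, and 0 of its 7 genes passed the filter. *HOXB1*, *HOXB4* and *HOXB5* had 0 counts in every library, which allows at most the 3-count level given above. *HOXB13* had 7 counts in DZC replicate 2 and 0 in the other 3 libraries, and *HOXB7* had 4 counts in DZC replicate 2 and at most 1 elsewhere. These were the *HOXB* genes with more than 3 counts in any library, and both reached that count in the library with the highest summed level of bone markers. The part of bone cells in these counts was not tested.

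The other genes below the filter lay at the posterior ends of the *HOXC* and *HOXD* clusters, apart from *HOXC5*. *HOXC12* and *HOXD12* had 0 counts in all libraries, and *HOXD13* had 1 count, in SZC replicate 2. *HOXC11* had 2 and 5 counts in SZCs against 5 and 6 in DZCs. *HOXC13* had 3 and 3 counts in SZCs against 5 and 15 in DZCs, and *HOXC5* had 5 and 7 counts against 3 and 5. By contrast *HOXA13*, whose group patterns the foot in the embryo, had 129 and 145 counts in SZCs against 63 and 112 in DZCs. Of the 34 genes, 13 were therefore not tested, and 5 of these had 0 counts throughout. Zone differences are given below for the 21 genes that passed. *HOXD1* passed only through its SZC libraries, so counts and medians over the 21 are descriptions.

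**Figure D1:**
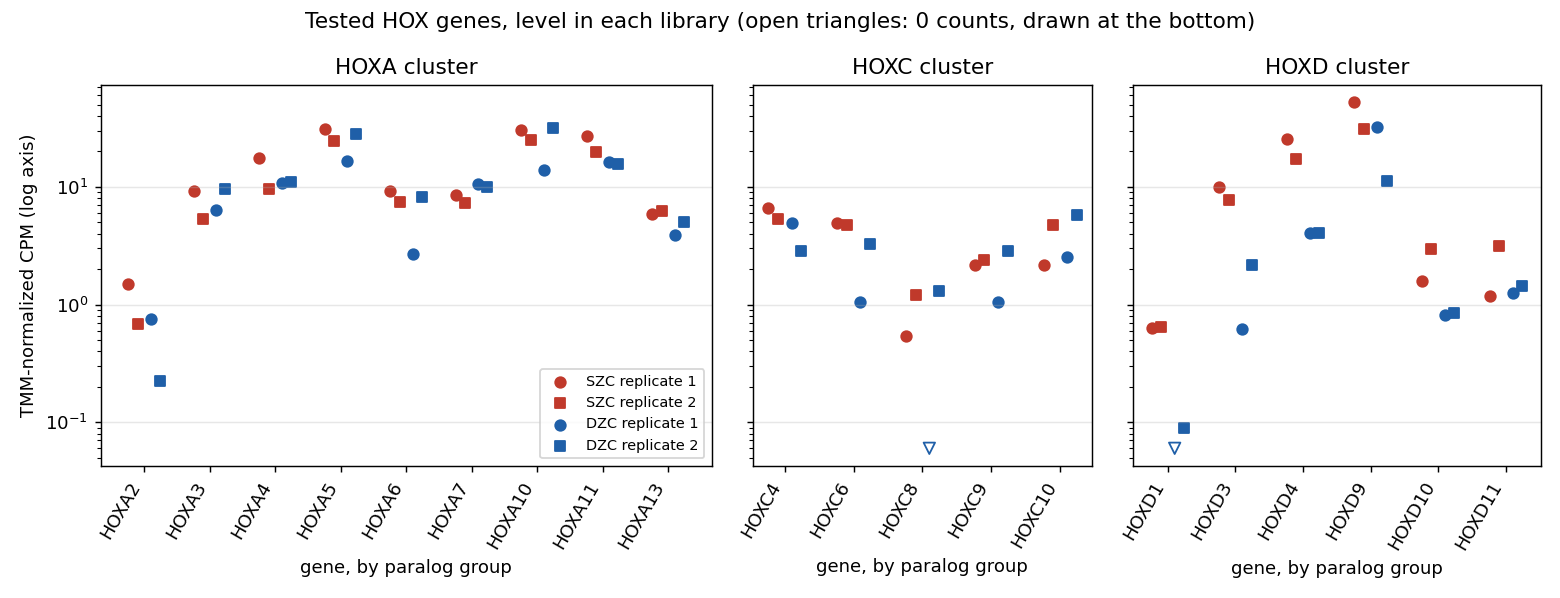
The level of 20 of the 21 tested HOX genes in each library, as TMM-normalized CPM on a log axis, with SZC libraries in red and DZC libraries in blue and with circles for replicate 1 and squares for replicate 2. The HOXD1, HOXD3, HOXD4 and HOXD10 values of SZCs lie above those of DZCs, while the zones overlap for 6 of the 9 HOXA genes drawn; open triangles mark HOXC8 and HOXD1 in DZC replicate 1, with 0 counts.

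*HOXD4* and *HOXD3* were higher in SZCs than in DZCs, and of the 21 tested *HOX* genes they were the 2 that passed the FDR threshold. *HOXD4*, an early-activated member of its cluster, is listed as ENSBTAG00000039581. Its counts were 563 and 403 in SZCs against 65 and 91 in DZCs. In CPM these are 25.6 and 17.4 in SZCs against 4.04 and 4.08 in DZCs, so that each SZC library lay at least 4-fold above either DZC library and the DZC libraries were nearly equal. The means were 21.5 ± 5.81 CPM (SD, n = 2) and 4.06 ± 0.025 CPM (SD, n = 2). On the log2 scale SZCs exceeded DZCs by 2.40 ± 0.45 (SE), or 5.28-fold, with an FDR of 4.66e-05 in the exact test of edgeR. The call was lost when SZC replicate 1 was left out (FDR 0.604 in the same edgeR test), with a log2 fold change of 2.09. In these bulk samples, fewer cells that express a gene and less RNA per cell cannot be told apart.

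*HOXD3*, listed as ENSBTAG00000004835, is the neighbour of *HOXD4* on the anterior side. It had 218 and 180 counts in SZCs against 10 and 48 in DZCs, or 9.90 and 7.76 CPM against 0.622 and 2.15 CPM. The zones did not overlap, but the DZC libraries differed from each other by 1.79 on the log2 scale, where the SZC libraries differed by 0.35. SZCs exceeded DZCs by 2.65 ± 0.71 (SE) in log2 units, or 6.26-fold, with an FDR of 0.0198 in the exact test of edgeR. The call did not stand without SZC replicate 1 (log2 fold change 2.47, FDR 0.856) or without SZC replicate 2 (2.82, FDR 0.301 in the same edgeR test). With library totals in place of TMM the log2 fold change was 2.82 and the FDR 0.0962, above the threshold. The quasi-likelihood test of edgeR called neither gene, with log2 fold changes of 2.64 for *HOXD3* and 2.40 for *HOXD4* and FDRs of 0.309 and 0.137. The RefSeq models of *HOXD3* and *HOXD4* overlap. The reads were counted on Ensembl models of another assembly, whose overlaps were not examined. Reads from any stretch that *HOXD3* and *HOXD4* share cannot be assigned to either gene with certainty.

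*HOXD1* stands at the end of the cluster, beyond *HOXD3*. It had 14 and 15 counts in SZCs against 0 and 2 in DZCs. The ratio of summed counts per scaled total was 12.3, with an exact binomial 95% interval of 3.11 to 106 that covers counting error only. Its fitted log2 fold change was 3.51 (standard error 1.27), and its FDR of 0.0613 in the exact test of edgeR fell outside the threshold. It passed the filter on low counts only through its SZC libraries, and both DZC counts lie under the 3-count level. The summed level of *HOXD1*, *HOXD3* and *HOXD4* was 36.1 and 25.8 CPM in SZCs and 4.67 and 6.32 CPM in DZCs, a 5.63-fold ratio of the means.

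On the posterior side of the *HOXD* cluster 0 of the 3 tested genes passed the FDR threshold in the exact test of edgeR, the quasi-likelihood test or DESeq2. The exact test called 2.93% of all tested genes, so a count of 0 does not set 3 genes apart. An unadjusted p under 0.05 was found for 0 of the 3 in any of these tests. In edgeR fits with other settings *HOXD10* had an unadjusted p of 0.0492 without a filter, 0.0469 with the filter of over 1 CPM, 0.0338 with library totals and 0.0441 with a replicate block, and *HOXD9* had one of 0.0112 with library totals and 0.00604 with the block, none of which passed after adjustment. *HOXD9* had the most counts of the cluster, with 1152 and 720 in SZCs and 520 and 252 in DZCs. At 52.3 and 31.0 CPM in SZCs and 32.3 and 11.3 CPM in DZCs, its zones overlapped, since DZC replicate 1 lay above SZC replicate 2. The log2 difference for *HOXD9* was 0.93 ± 0.59 (SE), with an FDR of 0.78 in the exact test of edgeR. The value depended on single libraries. Without DZC replicate 1 the log2 fold change was 1.89 (FDR 0.000175 by the same edgeR test, in which the remaining DZC library is assumed to vary like the SZC libraries), and without DZC replicate 2 it was 0.38 (FDR 0.503). It was 0.50 without SZC replicate 1 and 1.26 without SZC replicate 2, with an FDR of 1 in both of these edgeR tests.

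*HOXD10* and *HOXD11* both had fewer than 80 counts in every library. *HOXD10* had 35 and 69 counts in SZCs against 13 and 19 in DZCs, or 1.59 and 2.97 CPM against 0.809 and 0.852 CPM, without overlap. Its log2 difference was 1.45 ± 0.71 (SE), with an FDR of 0.554 in the exact test of edgeR. *HOXD11*, which acts in the lower limb segment of the embryo, had 26 and 73 counts in SZCs against 20 and 32 in DZCs, and its zones overlapped. For *HOXD11* the log2 difference was 0.69 ± 0.76 (SE). The RefSeq models of these neighbours also overlap.

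Along the *HOXD* cluster the log2 fold changes were therefore 3.51, 2.65 and 2.40 for *HOXD1*, *HOXD3* and *HOXD4*, and 0.93, 1.45 and 0.69 for *HOXD9*, *HOXD10* and *HOXD11*. *HOXD4*, of a central paralog group, is counted here with the anterior set, and the sets were drawn with the values known. The lowest value of the anterior set exceeded the highest of the posterior set with all libraries and in all 12 alternatives. These varied the test, filter, scaling, block or left-out library on the same data. *HOXD1* had no value under the filter of over 1 CPM. The margin was smallest without DZC replicate 1, at 2.04 against 1.89. *HOXD1* was near the detection limit, and the standard errors of the posterior genes were between 0.59 and 0.76. The order within either set is therefore not resolved. The difference between the sets as a whole was not tested. Across the sets, the ratios that follow pair only *HOXD3* and *HOXD4* with *HOXD9*.

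**Figure D2:**
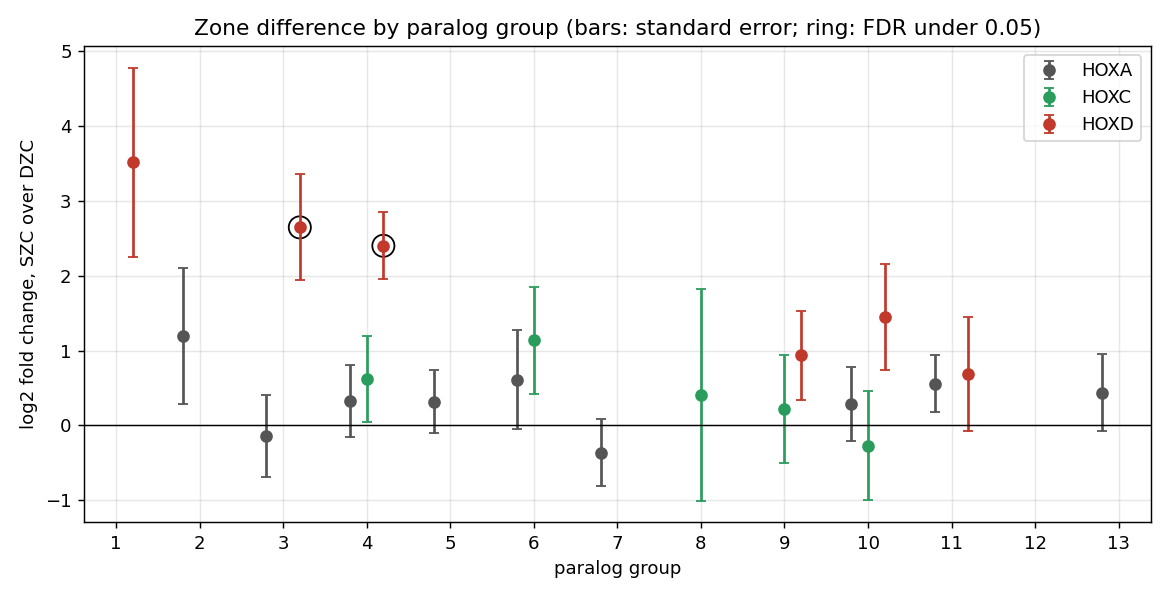
The log2 fold change of SZCs over DZCs for 20 of the 21 tested HOX genes against their paralog group, with HOXA in grey, HOXC in green and HOXD in red. Bars are standard errors and rings mark the genes with an FDR under 0.05, HOXD3 at 2.65 and HOXD4 at 2.40; the HOXA and HOXC genes drawn lie between -0.36 and 1.19.

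To set the anterior and posterior genes of the cluster against each other free of any scaling of libraries, ratios of counts within a library were compared. Gene lengths cancel in the comparison of such a ratio between libraries. The log2 ratio of *HOXD4* to *HOXD9* was -1.03 and -0.84 in SZCs and -3.0 and -1.47 in DZCs. The ratio was higher in both SZC libraries, with a mean difference of 1.30. By exact permutation (two-sided) p was 0.333, or 0.583 after adjustment over 7 pairs, and 0.333 is the smallest p that 2 libraries against 2 allow. For *HOXD3* over *HOXD9* the values overlapped, at -2.40 and -2.00 in SZCs and -5.70 and -2.39 in DZCs.

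The paralogs of *HOXD3* and *HOXD4* in the other clusters did not pass the FDR threshold. *HOXA4* had 385 and 224 counts in SZCs against 173 and 245 in DZCs, with a log2 difference of 0.32 ± 0.48 (SE). *HOXC4* had 146 and 123 counts in SZCs against 79 and 64 in DZCs, with a difference of 0.62 ± 0.57 (SE). *HOXA3* had 203 and 123 counts in SZCs against 103 and 214 in DZCs, with a difference of -0.14 ± 0.55 (SE). The log2 ratio of *HOXD4* to *HOXA4* was 0.55 and 0.85 in SZCs and -1.41 and -1.43 in DZCs, so that the more counted gene of this pair changed between the zones. The ratio of *HOXD4* to *HOXC4* was 1.95 and 1.71 in SZCs against -0.28 and 0.51 in DZCs, and that of *HOXD3* to *HOXA3* was 0.10 and 0.55 against -3.36 and -2.16. All 3 ratios separated the zones, each with p = 0.333 by the exact two-sided permutation test, or 0.583 after adjustment. No smaller unadjusted p was possible. *HOXD3* and *HOXD4* were called in these same libraries, so the separation is a description and adds no separate support. *HOXD9* over *HOXC9* did not separate them, at 4.58 and 3.71 in SZCs and 4.93 and 2.00 in DZCs.

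**Figure D3:**
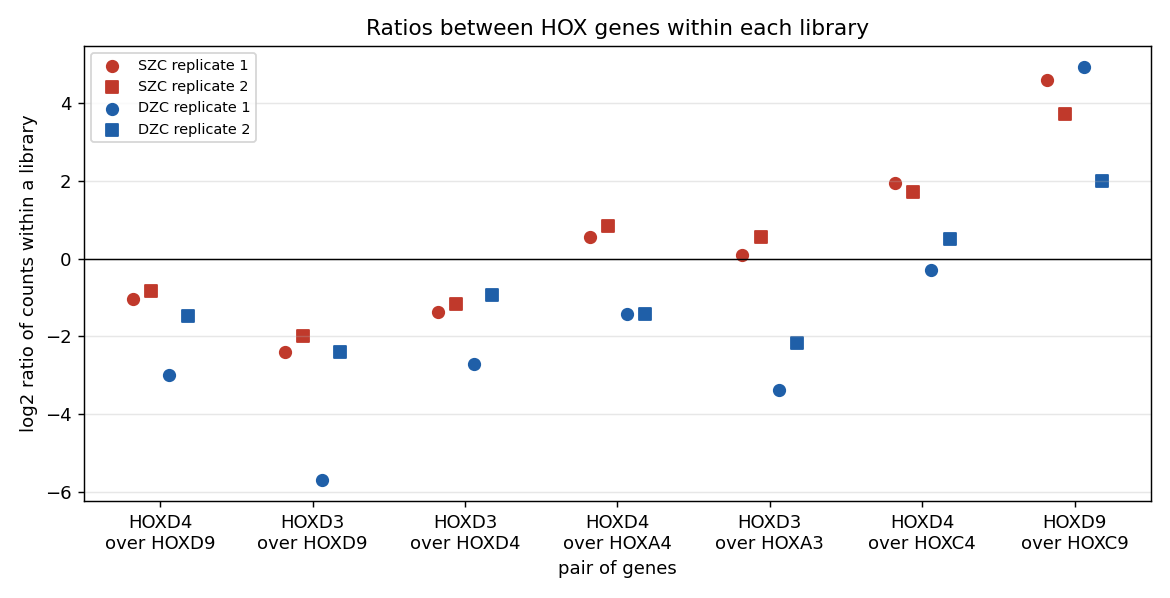
The log2 ratio of counts of 7 pairs of HOX genes within each library, with SZC libraries in red and DZC libraries in blue. The ratios of HOXD4 to HOXD9, HOXA4 and HOXC4 and of HOXD3 to HOXA3 are higher in both SZC libraries than in either DZC library, and the other 3 ratios overlap.

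In each of the paralog groups 3, 4, 9, 10 and 11, the *HOXD* gene had a higher log2 fold change than its tested *HOXA* and *HOXC* paralogs. The gap was widest in group 3, where *HOXD3* stood at 2.65 and *HOXA3* at -0.14. It was narrowest in group 11, with *HOXD11* at 0.69 ± 0.76 (SE) and *HOXA11* at 0.56 ± 0.38 (SE). In group 9 *HOXD9* stood at 0.93 ± 0.59 (SE) and its tested paralog *HOXC9* at 0.22 ± 0.73 (SE). The gaps in groups 9 and 11 are therefore not resolved, and only *HOXD3* and *HOXD4* passed the FDR threshold. The higher value of the *HOXD* gene held in 10 of the 12 alternatives. In the fits without SZC replicate 2 or without DZC replicate 2 it held for 4 of the 5 groups. Over whole clusters the median log2 fold change was 0.32 for the 10 tested *HOXA* genes and 0.41 for the 5 *HOXC* genes. It was 1.93 for the 6 *HOXD* genes, beside -0.04 for all tested genes. The *HOXD* median includes *HOXD1*, which passed the filter only through its SZC libraries, and so is a description only. The summed *HOXD* level was 91.2 and 62.9 CPM in SZCs and 39.1 and 19.9 CPM in DZCs. The summed *HOXA* level overlapped between the zones, at 143 and 109 CPM in SZCs and 86.3 and 121 CPM in DZCs, as did that of *HOXC*, at 16.9 and 19.0 CPM against 10.4 and 17.2 CPM.

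The 10 *HOXA* genes included 0 that passed the FDR threshold in the exact test of edgeR, 0 with an unadjusted p under 0.05, and 0 called by the quasi-likelihood test or by DESeq2. With 2.93% of all tested genes called, a count of 0 sets neither these 10 genes nor the 5 *HOXC* genes apart from other genes. *HOXA11*, which patterns the lower limb segment in the embryo, had 591 and 461 counts in SZCs against 261 and 347 in DZCs. At 26.9 and 19.9 CPM against 16.2 and 15.6 CPM its zones did not overlap, with a log2 difference of 0.56 ± 0.38 (SE) and an FDR of 0.823 in the exact test of edgeR. *HOXA13* did not overlap either, at 5.86 and 6.25 CPM in SZCs and 3.92 and 5.02 CPM in DZCs, with a log2 difference of 0.43 ± 0.52 (SE). *HOXA7* was the tested member with both DZC libraries above both SZC libraries, at 8.59 and 7.32 CPM in SZCs and 10.6 and 9.91 CPM in DZCs. The log2 difference was -0.36 ± 0.45 (SE).

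The mean of *HOXA10* was 27.6 ± 3.76 CPM in SZCs against 22.6 ± 12.4 CPM in DZCs (SD, n = 2 each). It had 667 and 580 counts in SZCs, with 222 for DZC replicate 1 and 700 for DZC replicate 2, so the DZC libraries lay on either side of the SZC libraries. *HOXA5*, with 31.3 and 24.3 CPM in SZCs and 16.5 and 28.0 CPM in DZCs, was lowest in DZC replicate 1, and its DZC replicate 2 lay between the SZC libraries. *HOXA2* and *HOXA6* overlapped between the zones and had log2 fold changes of 1.19 and 0.61. With 1 library left out, *HOXA2* ranged from 0.51 to 2.26 and *HOXA6* from 0.03 to 1.64, each at one end without DZC replicate 1. Without DZC replicate 2, *HOXA6* and *HOXA10* had an FDR of 0.0129 and 0.0168 in the exact test of edgeR. The RefSeq models of *HOXA3* overlap those of *HOXA4* and *HOXA5*, and that of *HOXA5* overlaps *HOXA6*.

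Among the 5 tested *HOXC* genes, 0 passed the threshold in the exact test of edgeR and 0 had an unadjusted p under 0.05, and the quasi-likelihood test and DESeq2 likewise called 0. *HOXC4*, at 6.63 and 5.30 CPM in SZCs and 4.91 and 2.87 CPM in DZCs, and *HOXC6* did not overlap between the zones. *HOXC6* had 108 and 109 counts in SZCs against 17 and 73 in DZCs, with a log2 difference of 1.14 ± 0.72 (SE) and an FDR of 0.788 in the exact test of edgeR. It rested on the DZC libraries, at 0.56 without DZC replicate 1 and 2.19 (FDR 0.00897 in the same edgeR test) without DZC replicate 2. *HOXC10*, which is known as a gene of the hindlimb, had 48 and 110 counts in SZCs against 41 and 129 in DZCs, with a log2 difference of -0.27 ± 0.72 (SE). *HOXC9* had 48 and 55 counts in SZCs against 17 and 63 in DZCs. *HOXC8* had 12 and 28 counts in SZCs, with 29 for DZC replicate 2 and 0 for DZC replicate 1.

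Over the 21 tested *HOX* genes, 17 had a positive log2 fold change and 4 a negative one, with a median of 0.56. Of all tested genes, 46.6% had a positive one. Among the 20 members whose values are given, 17 were positive with all libraries, 13 without DZC replicate 1 and 19 without DZC replicate 2. The 2 genes called higher in SZCs make 9.52% of the 21, beside 2.23% of all tested genes, and 0 were called higher in DZCs by edgeR's exact test, where 0 also had an unadjusted p under 0.05 in that direction. DESeq2 called the same 2 *HOX* genes, where 3.09% of all tested genes were called, and the quasi-likelihood test called 0 genes in all, with 1126 at an unadjusted p under 0.05. Both SZC libraries lay above both DZC libraries for 8 of the 21 (38.1%), among them *HOXD1*, which passed only through SZCs, where the share of all tested genes was 21%. The opposite order, seen for *HOXA7*, was found in 20.5% of all tested genes. Without the *HOXD* cluster, 4 of the 15 other tested members had both SZC libraries above, and their median log2 fold change was 0.32. With library totals in place of TMM, the median of all tested genes moved from -0.04 to 0.26 and that of the *HOX* genes from 0.56 to 0.78.

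**Figure D4:**
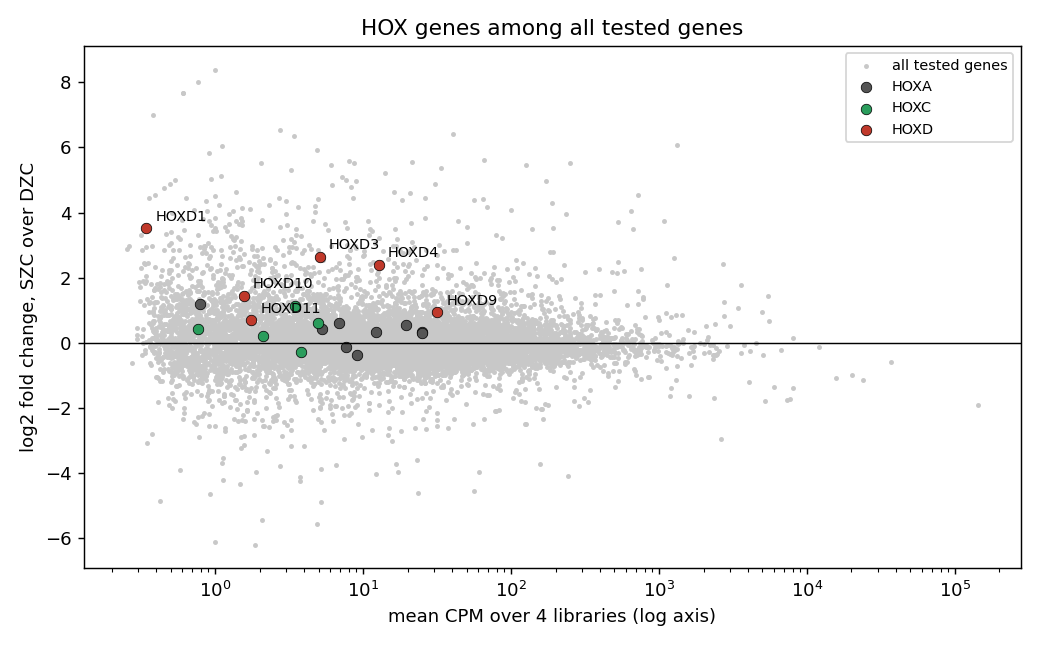
Log2 fold change of SZCs over DZCs against the mean CPM of the 4 libraries on a log axis, for all 12857 tested genes in light grey and for 20 of the 21 tested HOX genes by cluster. The HOXD genes, which are named, all lie above 0, and the HOXA and HOXC genes drawn lie between -0.36 and 1.19.

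The DZC libraries differed from each other in many members. The level in DZC replicate 1 was less than 0.5 times that in DZC replicate 2 for 8 of the 21 tested genes, beside 17.4% of all tested genes. These were *HOXA6*, *HOXA10*, *HOXC6*, *HOXC8*, *HOXC9*, *HOXC10*, *HOXD3* and, by its listed values alone, *HOXD1*, whose 0 and 2 counts both lie under the 3-count level and so do not show a difference. *HOXA6* showed this with 43 counts against 182, or 2.68 against 8.16 CPM. *HOXD9* went the other way, with the level of DZC replicate 1 higher by 1.52 on the log2 scale, and *HOXD4* was level in both. *COL2A1* took 24.5% of all counts of DZC replicate 1 against 12.9% for DZC replicate 2, and 5 of the 8 bone markers were higher in DZC replicate 2 while *IHH* was higher in DZC replicate 1, as given above. The fibroblast markers *COL1A1*, *THY1*, *PDPN*, *SCX* and *TNMD* had summed levels of 4499 and 9824 CPM in SZCs and 2234 and 6625 CPM in DZCs. Most of each sum was *COL1A1* except in DZC replicate 1, and the sum was higher in replicate 2 of each zone, while *PDPN* was higher in replicate 1 of each zone. The part of these differences in the *HOX* levels was not tested. With DZC replicate 2 left out, 7 of 21 tested *HOX* genes were called, where 20.7% of all tested genes were called, and *HOXC8* and *HOXD1* were among the 7 against a lone library with 0 counts. With DZC replicate 1 left out, 3 of 22 were called, where 6.67% of all tested genes were called. *HOXD3* and *HOXD4* were among those called in both cases.

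**Figure D5:**
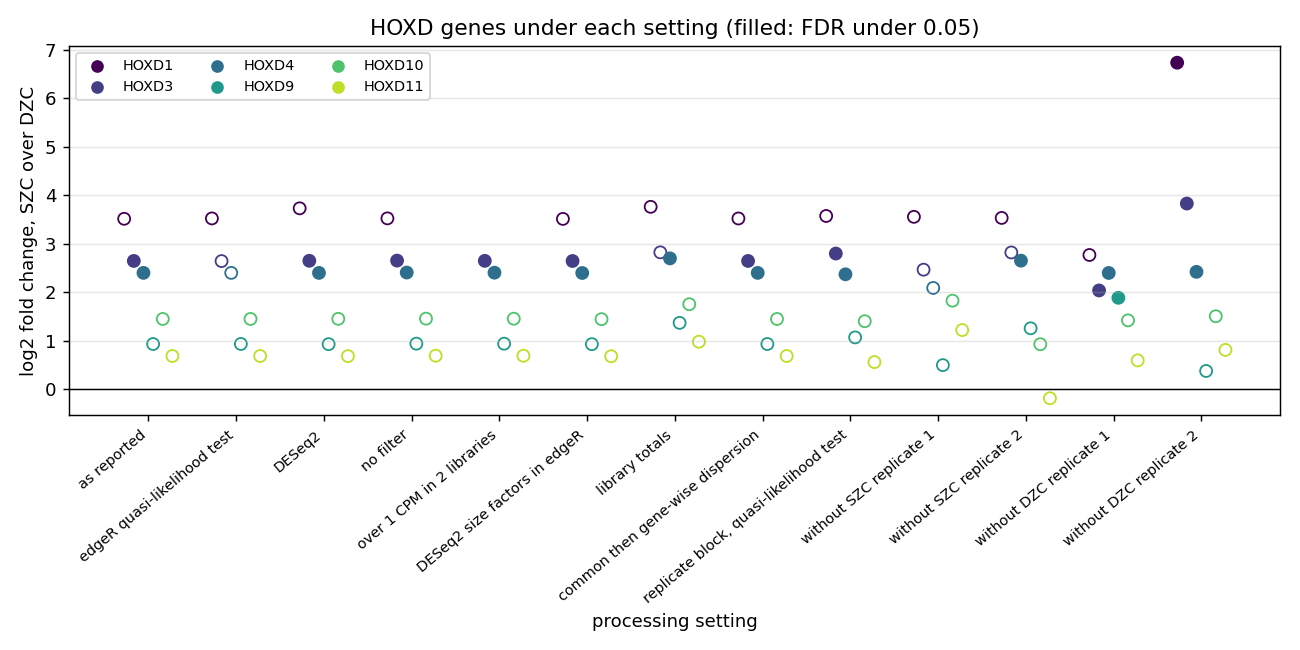
Log2 fold changes of SZCs over DZCs of the 6 tested HOXD genes under each processing setting, with filled points for an FDR under 0.05. HOXD3 and HOXD4 stay between 2.04 and 3.83, HOXD1 has no value under the filter of over 1 CPM, and the value of 6.73 for HOXD1 is a fitted one against a library with 0 counts.

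Of the genes that act with *HOX* proteins, 8 of the 9 listed TALE cofactors passed the filter, and *PBX4* did not, with 9 and 9 counts in SZCs against 0 and 4 in DZCs. Among the 8 that were tested, 0 passed the threshold in the exact test of edgeR, where 0 had an unadjusted p under 0.05, and the quasi-likelihood test and DESeq2 also called 0, with 1 such unadjusted p in each. Their median log2 fold change was 0.40, and in 7 of the 8 both SZC libraries lay above both DZC libraries, an order found in 21% of all tested genes. *MEIS2* had the highest CPM of the list, at 52.7 and 46.1 in SZCs and 34.3 and 32.3 in DZCs, with a log2 difference of 0.57 ± 0.34 (SE) and an FDR of 0.708 in the exact test of edgeR.

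Of 24 listed Polycomb and trithorax regulators, 23 were found in the table and tested, and 0 passed in the exact test of edgeR, the quasi-likelihood test or DESeq2, with 1 unadjusted p under 0.05 in each. The exact test called 2.93% of all tested genes, so that a count of 0 does not set a list of this size apart, nor the shorter lists of cofactors and neighbouring genes. The median log2 fold change of the regulators was 0.06, with a range from -0.40 to 0.70. *PHC2* and *RING1*, both Polycomb subunits, had the highest CPM of the list, *PHC2* at 117 and 80.9 in SZCs and 119 and 89.8 in DZCs, and *RING1* at 102 and 80.1 in SZCs and 134 and 87.9 in DZCs. *EZH2*, the Polycomb methyltransferase, had 438 and 465 counts in SZCs, with 82 for DZC replicate 1 and 588 for DZC replicate 2, and was picked out after its values were seen. *CDX1*, *CDX2* and *CDX4*, which activate *HOX* genes in the trunk of the embryo, had 0 counts in every library.

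The genes that lie beside the clusters were also compared. Of 11 listed, 10 were found and 7 were tested, and 0 passed in the exact test of edgeR, the quasi-likelihood test or DESeq2, with 0 unadjusted p under 0.05 in each. *MTX2*, the next gene to *HOXD1* outside the cluster in the RefSeq table, had 402 and 426 counts in SZCs against 332 and 417 in DZCs. Its log2 fold change was -0.10. *LNPK*, which lies on the other side of the *HOXD* cluster, had one of 0.28, the highest of a range from -1.00 to 0.28. The lowest was that of *SKAP2*, beside the *HOXA* cluster, with 133 and 265 counts in SZCs against 175 and 535 in DZCs, which overlapped in CPM (FDR 0.715 in the exact test of edgeR). *HIBADH* had the highest CPM of these genes, at 59.0 and 71.4 in SZCs and 77.3 and 91.2 in DZCs.

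Of 3 genes that mark the hindlimb or the forelimb, 2 were higher in SZCs by the exact test, beside 2.23% of all tested genes. *PITX1*, which specifies the hindlimb, was at 106 and 85.6 CPM in SZCs and 145 and 88.3 CPM in DZCs, with a log2 difference of -0.28 and an FDR of 0.998 in the exact test of edgeR. *TBX4*, its hindlimb partner, had 1016 and 1013 counts in SZCs against 341 and 349 in DZCs, a log2 difference of 1.29 ± 0.36 (SE) with an FDR of 0.0211 in the exact test of edgeR. *TBX5*, known from the forelimb, had 371 and 315 counts in SZCs against 49 and 72 in DZCs, with a log2 difference of 2.27 ± 0.46 (SE) and an FDR of 0.000283 in the same edgeR test. DESeq2 also called both genes, and the quasi-likelihood test called 0 of the 3.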

How the data were processed

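RNA-Seq counts of 2 SZC and 2 DZC libraries were used. The authors aligned 75-bp single-end reads with STAR 2.5.2b to the Ensembl genome UMD 3.1 and deposited raw counts of each gene, made without regard to strand. Their deposited table of 320 genes holds their own fold changes and FDR values, which were not used; it only filled 8 blank gene names. ATAC-Seq was not analysed here. Libraries were grouped by their labels. Counts were filtered (filterByExpr defaults: at least 10 counts at the median library size in 2 libraries, at least 15 in all), scaled by TMM and compared by the exact test of edgeR 4.0.16 (R 4.3.3), with FDR 0.05 over all tested genes. TMM and the exact test follow the study's methods, which name no filter on counts. Standard errors were calculated from a negative binomial model with edgeR's gene-wise dispersions taken as known, so they leave out the uncertainty of those dispersions. The alternatives were the quasi-likelihood test with and without a replicate block, DESeq2 1.42.0, other filters, scalings and dispersions, and each library left out. The members, gene lists and tests were chosen with earlier results of these data known. Members were named when called, when their zones do not overlap, as the highest of a cluster or as neighbours of called members; of other lists, called genes and the highest by mean CPM were named. All other genes named were added with their values known. Transcript lengths were not used, so which gene of a cluster or list has the most counts or CPM is not a comparison of expression per length. The RefSeq table served for gene order and overlaps only. Scripts were tested on simulated data; where each gene was given its own dispersion, the exact test made more false calls than its FDR threshold states and more than the quasi-likelihood test. The values of 1 member are not reported here, though counts, sums and medians over members include it.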

Additional observations from a re-analysis of the deposited data

How the results depend on the processing

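For 20 of the 21 tested *HOX* genes, 214 comparisons with an alternative kept direction and side of the threshold, 6 lost and 6 gained the call, and 12 changed sign. The quasi-likelihood test of edgeR called 0 genes in all, 0 higher in SZCs and 0 higher in DZCs, and so 0 *HOX* genes (1126 genes and 3 *HOX* genes had an unadjusted p under 0.05), where the exact test called 377, 287, 90 and 2. With the replicate number as a block, that test called 347 genes, of which 2 were *HOX* genes, *HOXD3* (FDR 0.0443) and *HOXD4* (FDR 0.0119 by edgeR's quasi-likelihood test). After each zone's mean was subtracted, libraries that share a number correlated at 0.42 across 12857 genes, but no label says that a number marks a shared joint. With library totals alone, 86.7% of the called genes were higher in SZCs, beside 76.1% with TMM, 44 genes were higher in DZCs, 1 *HOX* gene was called (higher in SZCs), and *HOXA3* turned to a log2 fold change of 0.10. The other 5 alternatives that kept all libraries each called *HOXD3* and *HOXD4* and no other *HOX* gene. The cause of these changes was not tested.

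With each library left out in turn, the lone library of a zone was assumed to vary like the other zone. The number of genes called then lay between 58 and 2725, of which 52 to 1607 were higher in SZCs and 6 to 1118 higher in DZCs, and 0 to 7 were *HOX* genes, all higher in SZCs. *HOXD4* was not called without SZC replicate 1 (FDR 0.604 by edgeR's exact test), and *HOXD3* was not called without SZC replicate 1 (0.856) or SZC replicate 2 (0.301). Their log2 fold changes lay between 2.09 and 2.65 and between 2.04 and 3.83. Changes of sign occurred among genes that were not called with all libraries: *HOXA3* lay between -0.60 and 0.20, *HOXA4* between -0.18 and 0.68, *HOXA5* between -0.0079 and 0.76, *HOXA10* between -0.18 and 1.02, *HOXC8* between -0.56 and 7.18 (the latter against a library with 0 counts), *HOXC9* between -0.31 and 1.12, *HOXC10* between -0.93 and 0.46, and *HOXD11* between -0.18 and 1.22. Depth limits the *HOXB* cluster, *HOXC5*, *HOXC11* to *HOXC13*, *HOXD1*, *HOXD12* and *HOXD13*, which had at most 15 counts in any library.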
